A study of Mus musculus with 5 samples.

Results

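The MAP kinase and AP-1 genes described here are 41 genes of the signaling cascade that runs from MAP kinase kinase kinases to AP-1 transcription factors. They were taken from a fixed list of gene names and are 41 of 21951 protein-coding genes of the mouse annotation. The list was chosen with earlier results of these data known, so its counts beside other genes are descriptive and not an independent test. They comprise 10 MAP kinases, 7 MAP kinase kinases, 7 MAP kinase kinase kinases, 2 MAPK-activated kinases, 5 dual-specificity phosphatases and 10 AP-1 or ATF factors. A ChIP-seq peak was assigned to a gene when its summit lay in the gene body or at most 50 kb upstream of the gene start.

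The peaks come from fibroblast-like synoviocytes (FLS), the fibroblasts of the joint lining, prepared from wildtype C57BL/6 mice. Chromatin was immunoprecipitated with an antibody to SOX4 or to RELA from FLS that were untreated or had received TNF at 10 ng/mL for 16 h. DNA from 3 cultures was pooled for each library, which leaves 1 library per condition and no replicate error. Peaks of all 4 libraries were called against a single input library of untreated FLS. The cultures were primary cells, and the peak lists hold no expression values against which their identity could be checked. For SOX4 there were 192 peaks without TNF and 543 with it, and for RELA 561 and 2502, in lists named below by factor and treatment (SOX4 untreated, SOX4 TNF and so on). They do not give the reads per library, so the number of reads behind each peak cannot be read from them. With no replicates, no test between conditions was possible.

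In a MAP kinase cascade, a MAP kinase kinase kinase phosphorylates a MAP kinase kinase, which in turn phosphorylates a MAP kinase. The main MAP kinase branches end in ERK, JNK and p38. Dual-specificity phosphatases switch MAP kinases off again, and MAPK-activated kinases carry the p38 signal further. AP-1 is a dimer of JUN, FOS or ATF family proteins that binds DNA and drives cytokine and matrix metalloproteinase genes in synovial fibroblasts. TNF activates both this cascade and NF-κB, whose transcriptionally active subunit is RELA. SOX4 is a transcription factor of the SOX group C with an HMG-box DNA-binding domain.

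Of the 41 genes, 6 held a summit in at least 1 list and 35 held none in any list. Across all protein-coding genes the share with a summit in any list was 9.98%. The 6 genes were Map3k3, Map3k4, Map3k5 and Map3k8, which encode MAP kinase kinase kinases, Mapk8, which encodes the MAP kinase JNK1, and Junb, which encodes an AP-1 subunit. Each held exactly 1 summit in each list in which it appeared, giving 10 peaks in all.

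No member held a SOX4 summit in untreated FLS, against 0.825% of all protein-coding genes. A count of 0 of 41 allows a share of up to 7.32% (3 counts of 41; the exact 95% interval in the plot of shares by list ends at 8.60%), so a share like that of the other genes was not detectable with 41 genes. With TNF, SOX4 summits were assigned to 2 of 41 genes (4.88%, exact 95% interval 0.596 to 16.5), Junb and Map3k8, against 2.03% of all genes. RELA summits in untreated FLS were assigned to the same 2 genes, against 1.51% of all genes. RELA TNF summits were assigned to 6 of 41 genes (14.6%, interval 5.57 to 29.2), against 9.25%. These intervals cover counting error only, and each of the 3 nonzero shares has an interval that includes the share of all genes.

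Long genes present a larger target, and the assignment windows of these genes were longer than most, with a median of 89.7 kb against 67.4 kb for all protein-coding genes. The counts were therefore also set beside the share of all protein-coding genes whose window length was within 20% of each member's. Added over the 41 genes, these shares give 0.334 genes for SOX4 untreated, 0.868 for SOX4 TNF, 0.653 for RELA untreated and 4.18 for RELA TNF. The observed counts were 0, 2, 2 and 6. For any list the sum was 4.49 genes and the count was 6. The differences amount to fewer than 2 genes in every list.

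Of the 6 genes with a RELA summit after TNF, 4 had no RELA peak in untreated FLS. RELA TNF summits without a RELA untreated summit were assigned to 4 of 41 genes (9.76%), Map3k3, Map3k4, Map3k5 and Mapk8, against 7.89% of all genes and a like-length sum of 3.60. Across all genes the number with a RELA summit was 332 without TNF and 2031 with TNF, so most genes in the RELA TNF list were of this kind. A SOX4 TNF summit within 50 bp of a RELA TNF summit was assigned to 2 of 41 genes, again Junb and Map3k8, against 1.46% of all genes and a like-length sum of 0.625.

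**Figure D1:**
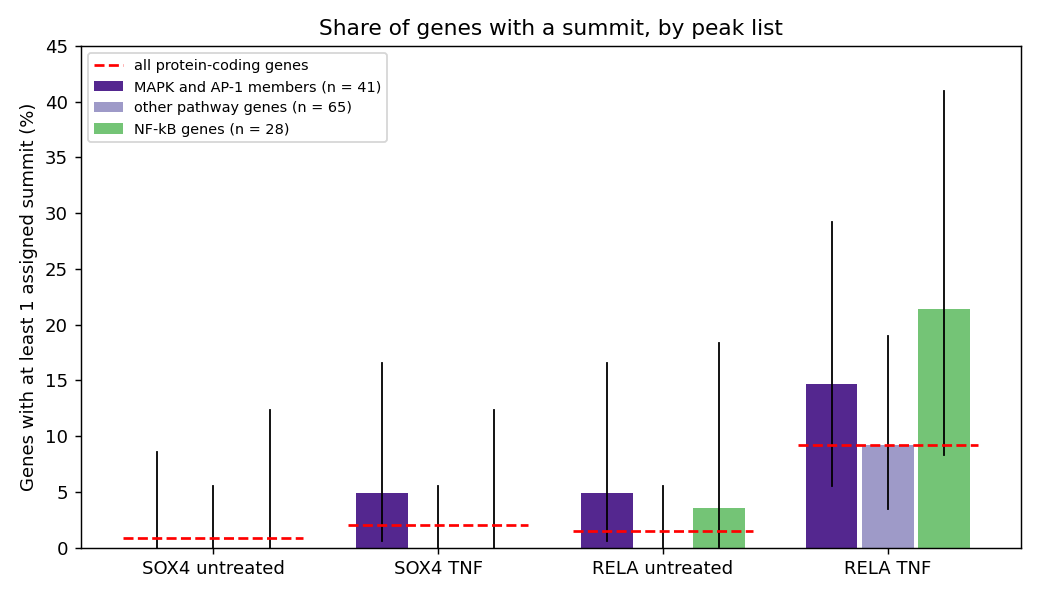
Share of genes (%) with at least 1 assigned summit in each of the 4 peak lists, as bars for the 41 MAP kinase and AP-1 genes, 65 other pathway genes and 28 NF-κB genes. Black lines are exact 95% intervals covering counting error only, dashed lines are the share of all protein-coding genes. The bar of the 41 genes goes from 0 for SOX4 untreated to 14.6% for RELA TNF, and its interval includes the dashed line in every list.

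By position in the cascade, the RELA TNF summits were unevenly spread. Of the 7 MAP kinase kinase kinases, 4 held one, where genes of like length would give 0.949. Only 1 of 10 MAP kinases did (like-length sum 0.967) and 1 of 10 AP-1 or ATF factors (0.748). None of the 7 MAP kinase kinases (0.841), the 5 dual-specificity phosphatases (0.485) or the 2 MAPK-activated kinases (0.194) did. The count of the MAP kinase kinase kinases depends on which of them are listed. None of 15 further genes of that tier, among them Map3k7 (TAK1) and Map3k14 (NIK), held a RELA TNF summit, so that over all 22 the count was 4 against a like-length sum of 2.52.

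The DNA under the summits is shown for Map3k4, Map3k5 and Junb, as examples of the repeated sequence found there. Each line gives 30 bases of the GRCm38.p6 reference (mm10) at or beside the RELA TNF summit, 5′ to 3′. In the first line the capitals mark a run of 15 bases that the 100-base window around the summit shares with the window of another of the 6 genes, and in the other two the longest run of 1 or 2 repeated bases.
Map3k4, chr17:12231456-12231485, minus strand: ctaaccaCAGCACTTGGGAGGCtgaggtgg
Map3k5, chr10:20093332-20093361, plus strand: ctgtctcAAAAAAAAAAAAAAAAtgttcta
Junb, chr8:85022654-85022683, plus strand: acgCACACACACACACACACACACACccac
The Map3k5 site has a run of 16 A bases and the Junb site a CA repeat of 23 bases.

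The run at Map3k4 was found at many other RELA TNF summits. It was in the 100-base window of 78 of 2502 RELA TNF summits (3.12%) on either strand, against 8 of 5004 windows placed 2000 bp to each side (0.160%). In the other lists it was in 2 windows each, of 192, 543 and 561. The run was chosen after the sequences were seen. Of the 10 peaks at these genes, 9 had their summit on soft-masked bases, the letters a reference marks as repetitive, as did 74.9% of all RELA TNF summits and 56.2% of SOX4 TNF summits. The 10 peaks stand for only 6 sites, since Junb and Map3k8 each count in more than 1 list. Of the 100 bases around the summit, the number soft-masked ranged from 26 at Map3k8 to 81 at Map3k5. The 50-base window around each of the 10 summits occurred at a single place in the reference. The repeat families were not annotated, and the part of repeats in these peaks was not tested.

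Map3k5 encodes ASK1, a stress-activated kinase upstream of JNK and p38. It had no peak in SOX4 untreated, SOX4 TNF or RELA untreated, and 1 in RELA TNF at chr10:20093304-20093367. The fold enrichment over background, the measure of peak height used throughout, was 17.0 there, with a Q score (the −log10 of the q-value) of 35.0. This was the strongest peak among the 41 genes, above 84.3% of the RELA TNF peaks. It lay in an intron, 159 kb into a gene of 208 kb (chr10:19934472-20142753, plus strand), and the nearest protein-coding gene start, 55.1 kb away, was that of Map7. No other protein-coding gene had this summit in its window. Map3k5 also had the longest window of the 6 genes, and 19.0% of genes of like length held a RELA TNF summit.

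Map3k3 encodes MEKK3, which acts upstream of the MAP kinase kinases of the ERK5 branch and of NF-κB. Its only peak was in RELA TNF, at chr11:106127769-106127833, with a fold enrichment of 14.5 and a Q score of 27.7, above 77.9% of that list. The summit was intronic, 43.2 kb from the start of a gene at chr11:106084613-106155446 (plus strand), and was also assigned to Gm10840, whose start was nearer (33.1 kb). Of genes with a like-length window, 12.8% held a RELA TNF summit.

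Map3k4 encodes MEKK4, an activator of the JNK and p38 branches. It too had a peak in RELA TNF alone, at chr17:12231430-12231492, with a fold enrichment of 9.97 and a Q score of 19.6. It stood near the middle of the list, above 50.5% of the RELA TNF peaks. The summit was intronic, 87.3 kb from the start, near the 3′ end of a gene at chr17:12227621-12318796 (minus strand). Among these 6 genes, Map3k4 and Mapk8 were the only ones whose own start was the nearest protein-coding gene start to the summit.

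Mapk8, which encodes JNK1, the kinase that phosphorylates JUN, was the single MAP kinase with a summit. Its RELA TNF peak at chr14:33425132-33425182 had a fold enrichment of 9.69 and a Q score of 15.0, above 50.2% of the list, and no other list had a peak there. The summit lay in an intron 22.0 kb from the start (gene at chr14:33377898-33447158, minus strand) and was also in the window of Frmpd2. The share of like-length genes with a RELA TNF summit was 12.5% for Mapk8 and 14.2% for Map3k4.

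The remaining 2 genes, Junb and Map3k8, differed from these 4 in that they carried a site upstream of the gene, in 3 of the 4 lists. Junb encodes an AP-1 subunit that dimerizes with FOS proteins. It is a short gene of 4.24 kb (chr8:84974484-84978718, minus strand), and its site lay 43.9 kb upstream, close to the 50 kb limit. SOX4 untreated had no peak there, and its nearest summit was 84.4 kb outside the window. SOX4 TNF had a peak at chr8:85022629-85022686 with a fold enrichment of 12.4 and a Q score of 21.6. RELA untreated had a peak at chr8:85022634-85022686 with a fold enrichment of 9.43 and a Q score of 13.9. RELA TNF had a peak at chr8:85022628-85022684 with a fold enrichment of 11.0 and a Q score of 18.0. Within their own lists, these stood above 79.6%, 64.3% and 60.1% of the peaks.

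The Junb site was nearer to other genes than to Junb. It lay in an intron of Asna1, which encodes an ATPase that inserts tail-anchored proteins into the endoplasmic reticulum, 2.63 kb from the Asna1 start. The same summit was in the windows of 6 other protein-coding genes (Best2, Asna1, Trir, Tnpo2, Fbxw9 and Dhps). Of genes with a window as long as that of Junb, 5.89% held a RELA TNF summit and 1.28% a SOX4 TNF summit.

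**Figure D2:**
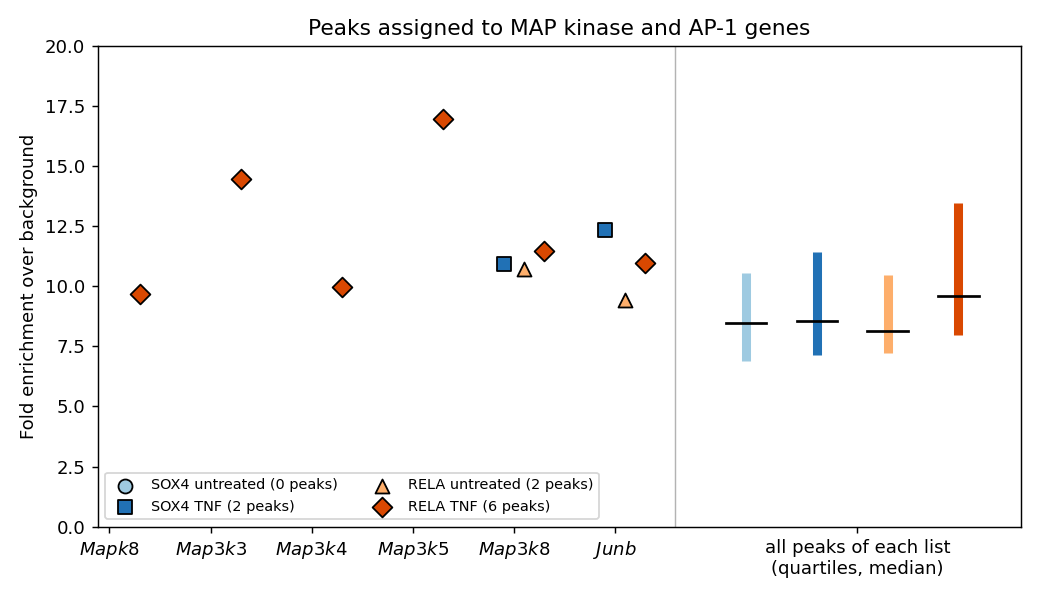
Fold enrichment over background (linear axis from 0) of each peak assigned to a member, by gene and list, 1 symbol per peak, with the quartiles and median of all peaks of each list at the right. Map3k5 has the highest peak at 17.0, Junb and Map3k8 have symbols of 3 lists, and SOX4 untreated has none.

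Map3k8 encodes TPL2, the MAP kinase kinase kinase that couples TNF and Toll-like receptors to ERK and is held inactive by the NF-κB precursor p105. Its site lay 15.7 kb upstream of the gene (chr18:4331327-4353015, minus strand), the closest to a gene start among the 6 genes. SOX4 TNF had a peak there at chr18:4368713-4368779 with a fold enrichment of 10.9 and a Q score of 17.7, above 71.1% of its list, and SOX4 untreated had none. RELA untreated had a peak at chr18:4368712-4368777 with a fold enrichment of 10.7 and a Q score of 17.3, above 75.4%. RELA TNF had a peak at the same interval with a fold enrichment of 11.5 and a Q score of 19.4, above 63.9%. The 3 values lie within a narrow range, and the RELA untreated summit was the 1 summit of the 10 that was not soft-masked. The site was in an exon of the lincRNA 4833419F23Rik and an intron of AC138768.3, and the nearest protein-coding start, 6.85 kb away, was that of Mtpap. No sequence of this site is shown.

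At both genes the factors' summits almost coincided. Shared summits were common, since 321 of the 445 protein-coding genes with a SOX4 TNF summit had one within 50 bp of a RELA TNF summit. The SOX4 TNF and RELA TNF summits were 0 bp apart at Junb and 1 bp apart at Map3k8, and the RELA summits with and without TNF were 19 bp and 10 bp apart. The fold enrichment of RELA with TNF over that without TNF was 1.16 at Junb (log2 0.22) and 1.07 at Map3k8 (log2 0.10). Over the 464 sites that RELA held in both conditions the median log2 ratio was 0.28 (quartiles 0.08 and 0.60). Junb exceeded 207 of these sites and Map3k8 exceeded 123, so neither gene stood among the sites with the larger increase. The log2 ratio of SOX4 TNF over RELA TNF fold enrichment was 0.17 at Junb and −0.07 at Map3k8, against a median of −0.15 over 381 shared sites. Junb exceeded 323 of those sites and Map3k8 214. With 1 library per condition these ratios have no replicate check. No member held SOX4 summits in both conditions, so no SOX4 ratio with TNF could be formed.

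**Figure D3:**
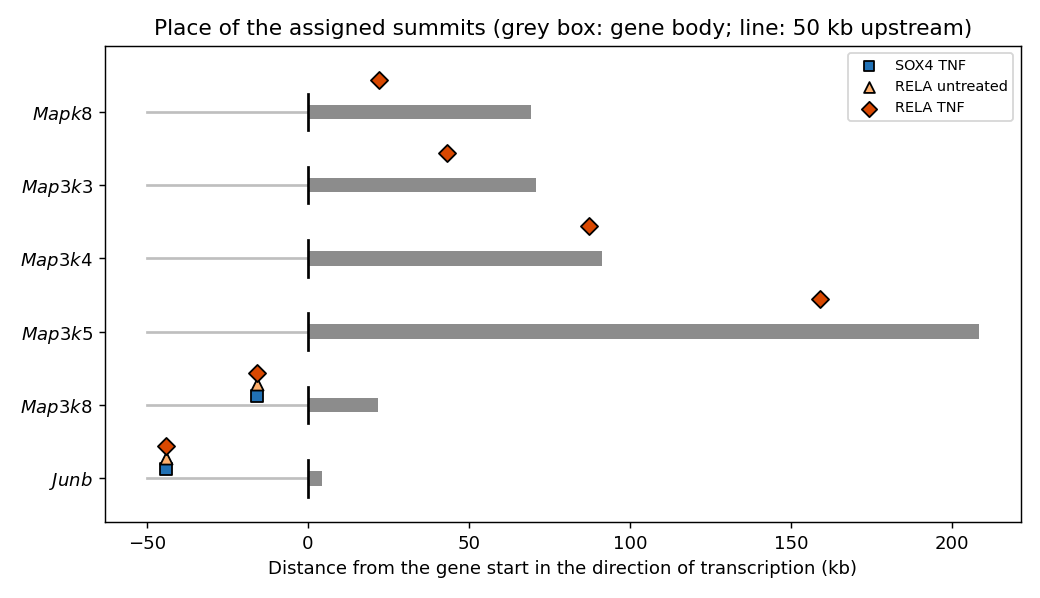
Place of each assigned summit along the 6 genes, as distance from the gene start in the direction of transcription (kb), with gene bodies as grey boxes and the 50 kb upstream stretch as a line. The summits of Junb and Map3k8 lie upstream with the symbols of 3 lists at 1 position, and the other 4 genes have a single RELA TNF summit inside the gene, from 22.0 kb to 159 kb past the start.

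None of the 10 summits was near the promoter of its member gene. The distance to the member's start was 15.7 kb or more in each case. No member had a RELA TNF summit within 10 kb of its start, where 2.33% of all protein-coding genes had one. A count of 0 of 41 allows a share of up to 7.32%, so a share like that of all genes was not detectable. Within 50 kb of the start, 4 members (9.76%) had a RELA TNF summit against 10.3% of all genes. Within 100 kb there were 8 (19.5% against 19.7%), and within 200 kb there were 17 (41.5% against 34.8%). The median distance from the gene start to the nearest RELA TNF summit was 274 kb for the 41 genes and 341 kb for all protein-coding genes. On this measure, which does not use gene length, the 41 genes were close to the other genes up to 100 kb.

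**Figure D4:**
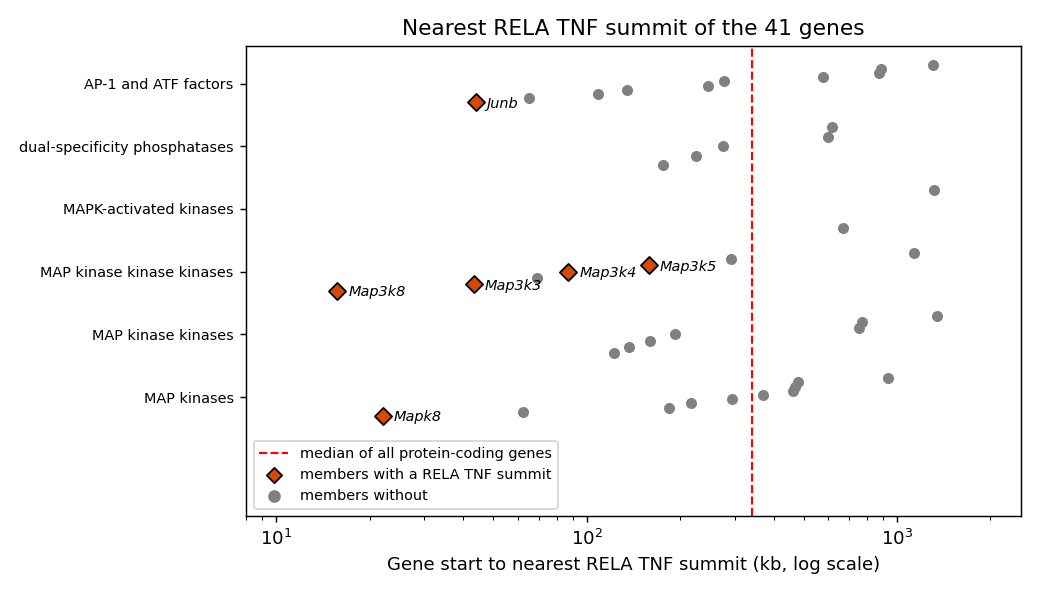
Distance from each gene start to the nearest RELA TNF summit (kb, log axis) for the 41 genes by family, with diamonds for the 6 genes that hold a summit by the assignment rule and grey points for the 35 others. The dashed line is the median of all protein-coding genes, 341 kb, and the members range from 15.7 kb for Map3k8 to 1349 kb.

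The 35 genes without a summit include most of the best-known members. Among the MAP kinases these were Mapk3 (ERK1), Mapk6, Mapk7 (ERK5), Mapk9 and Mapk10 (JNK2 and JNK3), and the p38 genes Mapk11, Mapk12, Mapk13 and Mapk14. All 7 MAP kinase kinases, Map2k1 to Map2k7, had none. Map3k1, Map3k2 and Map3k20, the kinases Mapkapk2 and Mapkapk3, and the phosphatases Dusp1, Dusp4, Dusp6, Dusp10 and Dusp16 also had none. Of the transcription factors, Jun, Jund, Fos, Fosb, Fosl1, Fosl2, Atf2, Atf3 and Batf had none.

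A few of these genes had a summit outside their window but within 50 kb of it. Map3k1, which encodes MEKK1, had a RELA TNF summit 69.0 kb upstream of its start with a fold enrichment of 7.48, 19.0 kb beyond the window. Mapk6 (ERK3) had a RELA TNF summit 21.4 kb downstream of its end with a fold enrichment of 9.98. Batf, a partner of JUN proteins, had one 42.7 kb downstream with a fold enrichment of 19.0, higher than any peak assigned to a member. The same peak was the nearest to Fos, the classical JUN partner, at 274 kb downstream. Only these 3 genes (Map3k1, Mapk6 and Batf) had a summit of any list within 50 kb of their windows. There were 8 within 100 kb and 25 within 500 kb, and the nearest summit was from the RELA TNF list for 31 of 35. That list is the largest, with 2502 peaks against 192, 543 and 561 in the others. The matching counts for all protein-coding genes without a summit were not computed, so these counts are not read as a trait of the members. Fosb is not among the 31, since a SOX4 TNF and a RELA TNF summit were equally near to its window, at 196 kb. Jun itself was farthest, with 1305 kb from its window to the nearest summit, and the median of the 35 was 218 kb against 308 kb for all protein-coding genes without a summit. For SOX4 TNF, Map2k2 (MEK2) came closest, with a summit 84.6 kb outside its window and a fold enrichment of 7.61.

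Other genes of the same pathway were counted by the same rule. Of 65, which include further phosphatases, MAP kinase kinase kinase kinases, scaffolds and ATF and MAF factors, 0 held a summit in SOX4 untreated, SOX4 TNF or RELA untreated. The like-length sums were 0.593, 1.48 and 1.13 genes. A count of 0 of 65 allows a share of up to 4.62%, so 65 genes could not show a difference from like-length genes. In RELA TNF 6 did (9.23%, interval 3.46 to 19.0), against a like-length sum of 6.92. The highest peak was at Map4k3, a kinase upstream of JNK, with a fold enrichment of 16.5. Batf3, Dusp5, Mapkapk5, Mink1 and Taok1 made up the rest. Among these 65 genes and the 41 members, Junb and Map3k8 were the genes with a SOX4 summit or a RELA summit in untreated FLS. This difference between the lists, 2 genes against 0, was not tested. The members were chosen with earlier results of these data known, and the authors report both genes among those with RELA-SOX4 peaks. The contrast is therefore descriptive only.

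For comparison, 28 genes of the NF-κB pathway, through which TNF signals to RELA, were counted by the same rule. Of these, 0 held a SOX4 summit in either condition, against like-length sums of 0.194 untreated and 0.463 with TNF. A count of 0 of 28 allows a share of up to 10.7%, so 28 genes could not show a difference from like-length genes. A RELA untreated summit was assigned to 1 gene (like-length sum 0.351), Traf2, an adaptor of the TNF receptor, with a fold enrichment of 8.09. With TNF, 6 of 28 held a RELA summit (21.4%, interval 8.30 to 41.0), against 9.25% of all protein-coding genes and a like-length sum of 2.46. Traf2 had the highest fold enrichment there, 26.7. The interval of this share overlaps that of the 41 MAP kinase and AP-1 genes.

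Short words were searched on both strands in the 100-base windows around the 10 summits. The 10 summits stand for 6 sites, since Junb and Map3k8 each have a window in 3 lists. The SOX word AACAANG was in 0 of the 2 SOX4 TNF windows and 0 of the 6 RELA TNF windows of these genes. It was in 5.71% of all SOX4 TNF windows and 6.45% of their flanking windows, so that 2 windows could not show a difference. The AP-1 word TGANTCA was in 0 of the 6 RELA TNF windows of these genes, and in 2.60% of all RELA TNF windows against 2.58% of the flanks. The NF-κB consensus was likewise in 0 of 6, and in 0.440% of all RELA TNF windows against 0.600% of the flanks. Each of these shares over whole lists was below that of the flanks or close to it. The word GCTGGGA, to which no factor was assigned here, was in 2 of the 6 RELA TNF windows, those of Map3k3 and Mapk8. It was in none of the 4 windows of the other lists. It was in 460 of 2502 RELA TNF windows (18.4%) and 3.14% of the flanks. Windows of 200 bases were an alternative added after the data were seen. In them the SOX word was in 4 of the 10 windows but at 2 of the 6 sites, since the Junb site counts in 3 lists beside Map3k4. Over all 200-base windows the SOX word was in 12.7% for SOX4 TNF, 15.3% for RELA untreated and 13.1% for RELA TNF. The flanks held it in 14.4%, 14.2% and 13.6%. The AP-1 word was in 1 member window, that of Mapk8, and in 5.68% of all RELA TNF windows against 5.74% of the flanks.

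The assignment rule decided several of these counts. With only 5 kb upstream, Junb and Map3k8 were lost, and the counts were 0 for SOX4 TNF, 0 for RELA untreated and 4 for RELA TNF. The shares of all protein-coding genes under that setting were 1.06%, 0.820% and 4.70%. When a summit went only to the protein-coding gene with the nearest start, Map3k4 and Mapk8 remained, a count of 2 for RELA TNF. SOX4 TNF and RELA untreated then had 0. Of all protein-coding genes, 4.96%, 1.17% and 0.907% held a summit of these lists under that setting. With summits on soft-masked bases left out, the RELA TNF count was 0, where 2.33% of all protein-coding genes still held a summit, and 1 RELA untreated summit was left, that of Map3k8.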

How the data were processed

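The authors aligned single-end reads to mm10. Peaks were called by the authors with MACS (Strand NGS software) relative to the input library, with a fragment length of 300, a p-value cutoff of 1e-05 and enrichment limits of 5 and 50, per the file headers. Treatment of duplicate and multi-mapping reads is not given in the sources used here. Of the deposited columns, P score and Q score hold the −log10 of a peak's p-value and q-value, and the fold change holds the caller's enrichment over background as a ratio. The deposited start, end and summit are mm10 positions, taken as counted from 1. Input reads, coverage and RNA-seq were not analysed here.

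All peaks were used. Summits were assigned with GENCODE vM21, and sequences were read from GRCm38.p6. Like-length sums add, over members, the share of protein-coding genes with a window length within 20% that hold a summit. Summits at most 50 bp apart were called shared. Words were searched in windows of 100 bases and in flanks 2000 bp away. Shares have exact (Clopper-Pearson) 95% intervals, and the limit for a count of 0 is 3 counts. No p-value was computed, since genes and peaks are not replicates.

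The members and gene lists were chosen with earlier results of these data known. Every member with a summit was named with its peaks, the others once, and of the other 2 lists the gene with the highest fold enrichment. One pathway gene is not reported here. Alternatives covered other upstream and downstream limits, a Q score of at least 10, any base of the peak, the nearest start, soft-masked and multi-copy summits, and other length bands. Assignment, shared summits, words and like-length shares were tested on simulated data. Intervals were computed with scipy 1.17.1 and figures drawn with matplotlib 3.10.9, beside numpy 2.4.6 and pandas 2.3.3 under Python 3.11.15.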

Additional observations from a re-analysis of the deposited data

How the results depend on the processing

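Of 56 values recomputed for 15 results, 44 stayed within 1.5 times of the reported count or kept their value, 12 moved and 0 changed sign. For SOX4 TNF the count of 2 genes became 0 with 5 kb upstream, 0 with the nearest gene start only and 0 without soft-masked summits. The shares of all protein-coding genes were then 1.06%, 1.17% and 0.961%. For RELA untreated the count of 2 became 0, 0 and 1 (Map3k8) under these settings, against 0.820%, 0.907% and 0.679% of all protein-coding genes. For RELA TNF the count of 6 became 2 with the nearest start, where 4.96% of all protein-coding genes held one. It became 0 without soft-masked summits, where 2.33% of all protein-coding genes still held one. It was 4 with 5 kb upstream, 7 with 100 kb (adding Map3k1), 8 with 50 kb downstream (adding Batf and Mapk6) and 6 with a Q score of at least 10. The shares of all protein-coding genes under these settings were 4.70%, 14.3%, 14.1% and 8.28%. Computed from the Q score, the RELA log2 ratio with TNF was 0.37 at Junb and 0.16 at Map3k8. The Q score also depends on depth. In windows of 200 bases, the SOX word was in 4 windows (3 of them the Junb site) and the AP-1 word in 1. Over all RELA TNF windows of that size the shares were 13.1% and 5.68%, against 13.6% and 5.74% of the flanks. The 200-base windows and like-length genes outside chromosome Y were added after seeing the data. Other causes of these shifts were not tested. No paired analysis was possible because there is a single pooled library for every condition. With 1 library per condition, neither the spread between cultures nor the depth behind a missing peak could be judged.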
